A study of Mus musculus with 10 samples.

Results

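Interferon-gamma is the signature cytokine of type 1 immunity, and its gene and the regulators that lead a T cell to make it were followed here through glucose restriction and acetate treatment. The 8 genes were chosen by name and all are in the deposited files: Ifng itself, the interleukin-12 receptor chains Il12rb1 and Il12rb2, the signal transducer Stat4, and the transcription factors Tbx21, Eomes, Runx3 and Hlx. They are 8 of 53465 annotated genes, and all 8 were among the 13182 genes with enough counts to be tested. The libraries came from OT-I mice on the C57BL/6 strain, whose CD8 T cells carry a transgenic receptor for an ovalbumin peptide. Cells of spleen and peripheral lymph nodes were stimulated with that peptide and interleukin-2 in 25 mM glucose, then held for their last days in 1 mM glucose. Every group therefore shared the transgene, the activation, the low glucose and a final restimulation with PMA and ionomycin for 4 h, which bypasses the antigen receptor.

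The 4 groups differed in the time spent in 1 mM glucose and in acetate. Restriction lasted 24 h in the libraries named d5 (n = 2) and 120 h in those named d9 (n = 3). These names are used below as labels, because 3 days of activation and 1 or 5 days of restriction sum to less than day 5 or 9. The matching acetate groups (n = 2 at d5, n = 3 at d9) received 5 mM sodium acetate during the final day. At d5 acetate thus covered the whole restriction, and at d9 it followed 4 days without it. Time in low glucose, age of the culture and sequencing depth moved together between d5 and d9 and cannot be told apart. The 25 mM glucose arm is not analysed here, so none of the values below is set against unrestricted cells.

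As background, dendritic cells and macrophages release interleukin-12, which binds a receptor of the chains IL-12R-beta1 and IL-12R-beta2 on T cells and activates STAT4. STAT4, the T-box factors T-bet (Tbx21) and Eomesodermin (Eomes) and the RUNX factor Runx3 act at the Ifng locus, and T-bet also promotes expression of IL-12R-beta2 and of the homeobox factor Hlx. In CD8 T cells T-bet is linked to effector differentiation, while Eomes has a larger part in memory cells, and both drive Ifng and cytotoxic genes. Secreted interferon-gamma signals through its own receptor, so its target genes are read in the same cells.

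The promoters of 4 members are shown because these genes moved in different directions below: Ifng with acetate, Tbx21 and Eomes in opposite directions between the days, and Runx3 unevenly between libraries. The sequences are from RefSeq on GRCm38.p6 and give the 250 bases before the annotated start, 5′ to 3′ on the gene's strand. Capitals mark matches to letters searched on both strands: TTCNNNGAA, the spaced palindrome of STAT proteins, GGAAA, the core bound by NFAT, and TGTGGT, the core bound by RUNX proteins. Positions are counted back from the start, with -1 the last base before it.
Ifng, chr10:118440796-118441045, plus strand: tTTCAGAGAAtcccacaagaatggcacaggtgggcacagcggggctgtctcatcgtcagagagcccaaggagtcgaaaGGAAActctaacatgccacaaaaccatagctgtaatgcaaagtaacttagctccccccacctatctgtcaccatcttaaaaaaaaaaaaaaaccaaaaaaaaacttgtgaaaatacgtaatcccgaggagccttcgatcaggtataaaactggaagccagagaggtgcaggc
Tbx21, chr11:97115332-97115581, minus strand: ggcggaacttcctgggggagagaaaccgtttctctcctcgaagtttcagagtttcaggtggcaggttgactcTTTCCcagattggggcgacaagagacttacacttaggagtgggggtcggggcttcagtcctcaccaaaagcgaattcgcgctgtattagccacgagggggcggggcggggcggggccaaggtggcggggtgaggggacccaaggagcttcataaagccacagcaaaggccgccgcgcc
Eomes, chr9:118477939-118478188, plus strand: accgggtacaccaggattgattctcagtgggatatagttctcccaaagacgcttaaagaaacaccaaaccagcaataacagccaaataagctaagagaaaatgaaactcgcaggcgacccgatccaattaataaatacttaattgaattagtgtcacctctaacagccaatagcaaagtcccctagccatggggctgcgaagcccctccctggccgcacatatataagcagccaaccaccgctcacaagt
Runx3, upstream start, chr4:135120395-135120644, plus strand: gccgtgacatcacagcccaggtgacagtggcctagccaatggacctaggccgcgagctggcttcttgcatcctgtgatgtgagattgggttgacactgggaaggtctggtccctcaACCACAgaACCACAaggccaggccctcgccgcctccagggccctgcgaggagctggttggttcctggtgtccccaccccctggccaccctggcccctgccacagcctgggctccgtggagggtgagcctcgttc
The Ifng window held 1 STAT match at -249 and 1 NFAT core at -172, and the Tbx21 window held 1 NFAT core at -178. The Runx3 window held 2 RUNX matches, at -134 and -126, and the Eomes window held no match. Among 32851 windows of 250 bases before annotated starts, 7.02% held the STAT letters, 55.6% the NFAT core and 14.0% the RUNX letters. The T-box core GGTGTG (16.3% of windows) and the AP-1 letters TGANTCA (6.75%) were searched too and matched in none of the 9 windows of the 7 members that had an entry. No AP-1 letters overlapped a match shown. These matches describe the letters of short windows, and no binding was measured in these libraries.

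Expression is given as CPM, counts relative to the library total after TMM scaling, as mean ± SD over libraries. Changes are log2 fold changes ± SE, tested with edgeR (quasi-likelihood) on all 13182 genes; a change was called where its Benjamini-Hochberg adjusted p was under 0.05. With acetate at d5, 1 of the 8 members rose (Ifng) and none fell, against 1.52% of all tested genes called in either direction. With acetate at d9, 0 of 8 passed edgeR, against 0.0303% of all genes; 3 members (Ifng, Stat4 and Tbx21) had an unadjusted p under 0.05, and the DESeq2 Wald test called 3. Averaged over the 2 days, Ifng and Stat4 rose with acetate, 2 of 8 against 5.89% of all genes.

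Between the days, 4 of 8 members changed without acetate (3 higher, 1 lower) and 5 of 8 with acetate (4 higher, 1 lower). The shares of all tested genes called were 37.1% and 41.6%, so these counts lie near the background. Il12rb1, Il12rb2 and Eomes were higher and Tbx21 was lower at d9 in both acetate states, and Runx3 was higher at d9 in the presence of acetate. The median change of the 8 members was 0.81 without and 1.14 with acetate, where the median of all tested genes was -0.01 in both. No member, and 0% of all genes, passed edgeR for the difference between the acetate effects at d9 and d5; 2 members (Ifng and Eomes) and 1015 genes had an unadjusted p under 0.05, and the DESeq2 Wald test called 0 members and 102 genes.

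**Figure D1:**
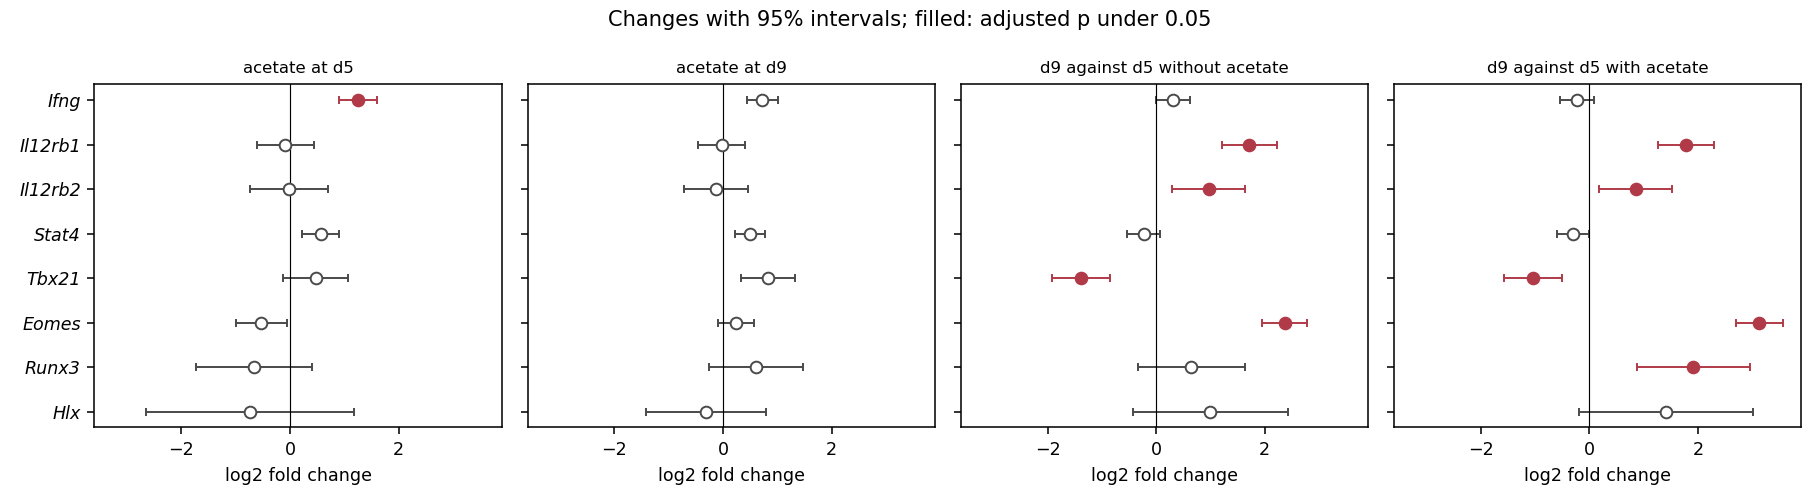
Log2 fold changes of the 8 members with 95% intervals in 4 comparisons; filled points passed an adjusted p of 0.05 over all tested genes. Ifng, Stat4 and Tbx21 lie to the right of 0 in both acetate panels, where only the Ifng point at d5 is filled. Eomes and Tbx21 lie on opposite sides in the panels of d9 against d5.

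The depth of the libraries was 16.59 to 17.97 M counts at d5 and 22.97 to 24.66 M counts at d9. On the second principal component the d5 libraries lay at 18.2 and 29.2 without acetate and at -16.4 and -32.9 with it. On that component the d9 library 1 without acetate and the d9 library 2 with acetate stood apart from the other libraries of their groups (-19.9 and -26.1, against 2.24 to 21.8 for the other d9 libraries). In those 2 d9 libraries ribosomal protein genes took 15.3% and 14.9% of counts, against 11.0 to 12.6% in the other d9 libraries and 10.6 to 13.8% at d5. Results whose call changes without them are given with both values. Whether replicates came from different cultures or animals is not labelled, so p-values measure the spread between these samples, which may be technical.

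Ifng, the cytokine gene, was the most abundant member. Without acetate at d5 its 2 libraries held 463 and 439 CPM, and with acetate 1169 and 987 CPM. At d9 the libraries without acetate held 544, 553 and 577 CPM, and those with acetate 951, 1046 and 768 CPM. Every library with acetate was above every library without it, at either day. At d5, 29.8% of all tested genes were higher in every acetate library, and at d9 9.9% were.

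At d5 the mean of Ifng rose from 451 ± 17.0 to 1078 ± 129 CPM, a 2.39-fold increase (log2 1.26 ± 0.16, 95% interval 0.91 to 1.61; edgeR adjusted p = 0.00976). With groups of 2, leaving out any of the 4 d5 libraries kept the change between 1.13 and 1.37 while the edgeR adjusted p was 0.0592 to 0.111. At d9 the means were 558 ± 16.8 and 922 ± 141 CPM (log2 0.72 ± 0.13, interval 0.44 to 1.01; edgeR adjusted p = 0.0833), which did not pass. Without the 2 libraries that stood apart this d9 change was 0.62 and passed (edgeR adjusted p = 0.0365). Averaged over both days acetate raised Ifng 1.99-fold (0.99 ± 0.10; edgeR adjusted p = 0.00191), and this call held when any single library was left out (adjusted p of 0.00172 to 0.0271 in 10 fits).

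The order of the Ifng levels was d5 without acetate, d9 without acetate, d9 with acetate and d5 with acetate, from lowest to highest. The first pair differed by 0.31 ± 0.14 (edgeR adjusted p = 0.117) and the last pair by -0.23 ± 0.14 (d9 minus d5; edgeR adjusted p = 0.222), and neither difference passed; without the 2 apart libraries the last was -0.33 and passed (edgeR adjusted p = 0.0364). In the acetate groups the libraries of the 2 days overlapped. Without acetate every d9 library was above both d5 libraries, as for 29.7% of all tested genes. The acetate effect at d9 minus that at d5 was -0.53 ± 0.20 (interval -0.98 to -0.09; edgeR adjusted p = 0.552). Per kilobase of exon Ifng stood at 349 to 832 CPM, above every other member in every group.

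**Figure D2:**
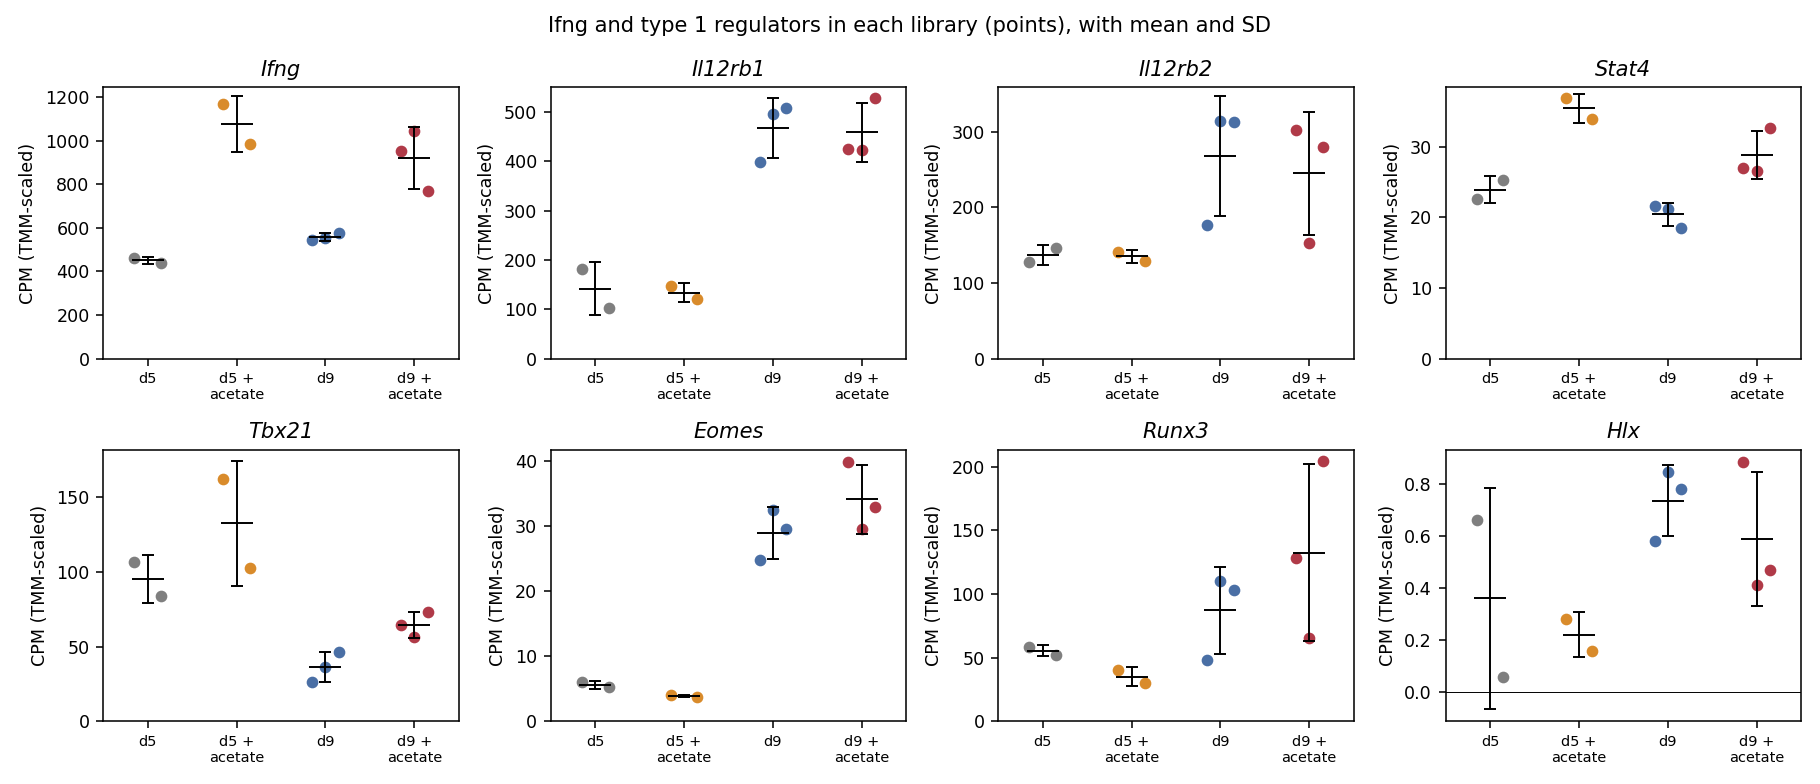
CPM of each member by group, with every library as a point and the mean and SD beside them. Each panel has its own axis, which starts at 0 except for Hlx, where it starts below 0. For Ifng both acetate groups lie above both groups without acetate, whereas Il12rb1 and Eomes separate by day.

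Ifng lies at chr10:118441046-118445892 on the plus strand of GRCm38. Its exons, 1295 bases in all, share 336 bases (25.9%) with Gm49751, an unconfirmed model on the same strand, so reads there could be assigned to either. Gm49751 held 331 counts over all libraries against 157432 for Ifng. Adding its counts to those of Ifng left the acetate change at d5 at 1.25.

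Of 29 other genes that start within 500 kb of the Ifng start, 20 had no count in any library and 6 had 1 or 2 counts in all. Among the latter were Il22, which encodes the cytokine interleukin-22 (2 counts), and Ifngas1, a long noncoding RNA gene at the locus (1 count). The 3 tested neighbours were Mdm1, Gm49751 and Dyrk2. Dyrk2, a protein kinase gene, rose with acetate averaged over the days (0.44 ± 0.10; edgeR adjusted p = 0.0368), from 18.8 ± 0.846 to 26.8 ± 1.17 CPM at d5 and from 21.6 ± 1.60 to 27.6 ± 4.01 CPM at d9. For Mdm1 this average was -0.18 ± 0.13 (edgeR adjusted p = 0.419).

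The 2 chains of the interleukin-12 receptor were higher after the longer restriction and showed no acetate effect that passed. Il12rb1, the chain shared with the interleukin-23 receptor, held 181 and 103 CPM at d5 and 147 and 120 CPM at d5 with acetate. At d9 it held 398, 496 and 508 CPM, and with acetate 425, 422 and 527 CPM. All 6 d9 libraries lay above all 4 d5 libraries. Of all tested genes, 29.7% were higher in every d9 library without acetate and 29.1% with it. The increase was 3.29-fold without acetate (1.72 ± 0.23; edgeR adjusted p = 3.04e-04) and 3.42-fold with it (1.77 ± 0.23; edgeR adjusted p = 2.35e-04), and both passed in each of the 5 fits without 1 library. The acetate changes were -0.08 ± 0.24 at d5 (interval -0.61 to 0.44) and -0.03 ± 0.19 at d9 (interval -0.46 to 0.40), intervals that include changes of up to about a log2 value of 0.6 in size.

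Il12rb2, the chain that is induced in type 1 cells and carries the STAT4 docking site, held 127 and 147 CPM at d5 and 141 and 129 CPM at d5 with acetate. At d9 it held 176, 314 and 313 CPM, and with acetate 302, 152 and 280 CPM. The lowest value in each d9 group was that of the library that stood apart, and these 2 values still exceeded every d5 value. Of all tested genes, 29.7% were higher in every d9 library without acetate and 29.1% with it. Il12rb2 rose 1.95-fold without acetate (0.97 ± 0.31, edgeR adjusted p = 0.0303) and 1.81-fold with it (0.86 ± 0.30, edgeR adjusted p = 0.0437). Each call held in 1 of the 5 fits that left out 1 library, the one without the apart library, with edgeR adjusted p of 0.00496 to 0.165 without and 0.00498 to 0.187 with acetate. With no filter on low counts both calls were lost (edgeR adjusted p of 0.112 and 0.147). Without both apart libraries the changes were 1.17 (edgeR adjusted p = 9.16e-06) and 1.10 (edgeR adjusted p = 1.03e-05).

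The count of Il12rb2 is uncertain. Its exons share 1519 of 3794 bases (40.0%) with Serbp1, a more abundant gene on the opposite strand (395 to 559 CPM as group means), and whether reads were counted by strand is not stated in the labels. The summed count of both genes, most of which is Serbp1, changed between the days by 0.35 without acetate, which still passed, and by 0.10 with it (edgeR adjusted p = 0.510), which did not. The acetate changes of Il12rb2 itself were -0.02 ± 0.33 at d5 and -0.13 ± 0.26 at d9 (intervals -0.74 to 0.70 and -0.72 to 0.46), and neither passed.

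Stat4, which carries the interleukin-12 signal to the nucleus, followed acetate. Its libraries held 22.6 and 25.3 CPM at d5 and 36.9 and 34.0 CPM at d5 with acetate. At d9 they held 21.6, 21.1 and 18.5 CPM, and with acetate 27.0, 26.6 and 32.7 CPM. At each day every acetate library exceeded every library without acetate, as for 29.8% of all tested genes at d5 and 9.9% at d9. The change was 0.57 ± 0.15 at d5 (edgeR adjusted p = 0.0883) and 0.50 ± 0.12 at d9 (edgeR adjusted p = 0.134), and neither passed edgeR alone. By the DESeq2 Wald test both of these changes passed (adjusted p = 0.0229 at d5 and 0.0231 at d9). Their average was a 1.44-fold rise (0.53 ± 0.10; edgeR adjusted p = 0.0179). That call was lost in 5 of the 10 fits without 1 library: those without either library of each d5 group and without d9 library 3 lacking acetate, at edgeR adjusted p of 0.0551 to 0.0989.

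Between the days Stat4 changed by -0.23 ± 0.14 without acetate (edgeR adjusted p = 0.219) and by -0.30 ± 0.14 with it (edgeR adjusted p = 0.101). Across Stat2, Stat3, Stat5a, Stat5b and Stat6, the averaged acetate changes ran from -0.34 for Stat2 to 0.41 for Stat3 and none passed edgeR (adjusted p of 0.0550 to 0.684). Between the days without acetate Stat2, Stat5a, Stat5b and Stat6 were higher at d9, with log2 changes of 0.60 to 0.78. Exons of Stat4 share 1033 of 3872 bases with Gm28177 on the same strand, a model that held 2 counts in all.

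The paired T-box factors moved in opposite directions between the days. Tbx21, which encodes T-bet, held 107 and 83.7 CPM at d5 and 162 and 103 CPM at d5 with acetate. At d9 it held 26.5, 36.4 and 46.6 CPM, and with acetate 64.4, 56.2 and 73.4 CPM. Every d5 library lay above every d9 library, as for 33.4% of all tested genes without acetate and 33.4% with it. Tbx21 fell 2.61-fold between the days without acetate (-1.38 ± 0.24; edgeR adjusted p = 0.00151) and 2.05-fold with it (-1.03 ± 0.24; edgeR adjusted p = 0.00662). The first call held in all 5 fits without 1 library. The second was lost without the d5 acetate library 1, which held the highest value of all (-0.66; edgeR adjusted p = 0.102).

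With acetate the 3 d9 libraries of Tbx21 were all above the 3 without it, as for 9.9% of all tested genes. At d5 the 2 groups overlapped. The acetate changes were 0.47 ± 0.27 at d5 (interval -0.12 to 1.07; edgeR adjusted p = 0.346; 0.11 without the d5 acetate library 1 and 0.76 without library 2) and 0.82 ± 0.22 at d9 (interval 0.33 to 1.32; edgeR adjusted p = 0.158). Averaged over the days the change was 0.65 ± 0.18 (edgeR adjusted p = 0.0547), just short of the threshold. This average passed with DESeq2 size factors (edgeR adjusted p = 0.0469), with no filter on low counts (0.0374 by edgeR), by the DESeq2 Wald test (adjusted p = 0.00554) and without the 2 apart libraries (0.0256 by edgeR). It did not pass with a replicate block, and it passed in 2 of the 10 fits without 1 library, where the change was 0.47 to 0.79 and the edgeR adjusted p 0.0354 to 0.208.

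Eomes, which encodes Eomesodermin, held 6.01 and 5.20 CPM at d5 and 3.98 and 3.79 CPM at d5 with acetate. At d9 it held 24.7, 32.6 and 29.5 CPM, and with acetate 39.9, 29.5 and 32.9 CPM. All d9 libraries exceeded all d5 libraries, and the d9 groups with and without acetate overlapped. Of all tested genes, 29.7% were higher in every d9 library without acetate and 29.1% with it. The lowest library held 71 counts of Eomes. Eomes rose 5.15-fold without acetate (2.37 ± 0.19; edgeR adjusted p = 1.33e-05) and 8.77-fold with it (3.13 ± 0.20; edgeR adjusted p = 4.00e-06), and both calls held in each of the 5 fits without 1 library. These were the largest changes of any member.

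At d5 both acetate libraries of Eomes lay below both libraries without acetate, as 29.2% of all tested genes did, and the change of -0.53 ± 0.21 did not pass (edgeR adjusted p = 0.211). At d9 the acetate change was 0.24 ± 0.15 (edgeR adjusted p = 0.483). The difference between them was 0.77 ± 0.26 (interval 0.20 to 1.34) and did not pass over all genes (edgeR adjusted p = 0.504). An antisense gene, Gm33460, overlaps 118 of the 4155 exon bases of Eomes (2.84%).

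Per kilobase of exon Tbx21 was more abundant than Eomes in every library, by a ratio that depended on the day. The ratio was 29.7 and 26.9 at d5 and 68.0 and 45.3 at d5 with acetate. At d9 it was 1.79, 1.87 and 2.64, and with acetate 2.69, 3.18 and 3.73. At either day the acetate libraries had the higher ratios and did not overlap with those without acetate. The ratio itself was not tested, and at neither day did the acetate change of Tbx21 or of Eomes pass edgeR. At d5 it also rests on few counts of Eomes. In CPM per kilobase Tbx21 went from 38.3 ± 6.56 at d5 to 14.7 ± 4.03 at d9 without acetate, and Eomes from 1.35 ± 0.139 to 6.96 ± 0.950. Among the 16 T-box genes in the files the only other one tested was Tbx6, and 13 were not tested, with 10 counts or fewer over all libraries.

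**Figure D3:**
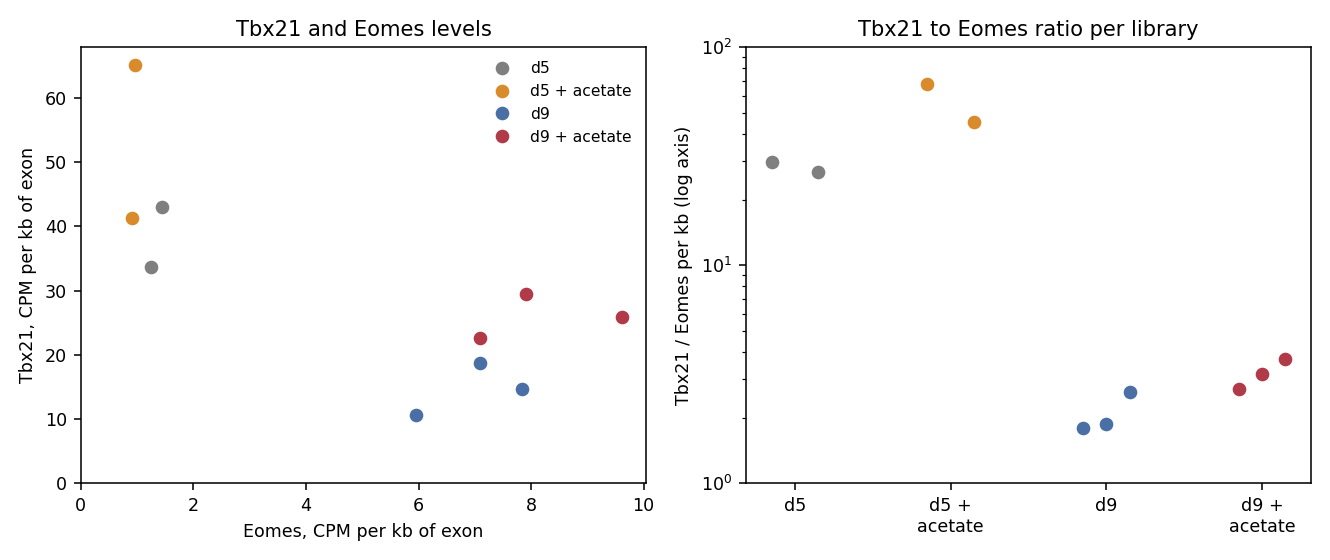
Left, Tbx21 against Eomes in CPM per kilobase of exon, 1 point per library; right, the ratio of Tbx21 to Eomes per library on a log axis. The d5 libraries lie at ratios of 26.9 to 68.0 and the d9 libraries at 1.79 to 3.73.

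Runx3, the RUNX factor that establishes the CD8 lineage and binds with T-bet at Ifng, varied widely between replicates at d9. It held 58.8 and 52.5 CPM at d5 and 40.6 and 29.7 CPM at d5 with acetate. At d9 it held 48.2, 110 and 103 CPM, and with acetate 128, 65.3 and 205 CPM. The lowest value in each d9 group was again that of the library that stood apart, and without acetate that library lay below both d5 libraries. With acetate Runx3 was 3.78-fold higher at d9 than at d5 (1.92 ± 0.47; edgeR adjusted p = 0.00858). This call was lost with no filter on low counts (edgeR adjusted p = 0.0566) and without the d5 acetate library 2 (edgeR adjusted p = 0.0784), and the change was 2.24 without the 2 apart libraries (edgeR adjusted p = 9.02e-05).

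Without acetate the change of Runx3 between the days was 0.65 ± 0.44 (edgeR adjusted p = 0.274), and without the apart libraries it was 0.92 and passed (edgeR adjusted p = 0.00925). The acetate changes were -0.66 ± 0.48 at d5 (interval -1.73 to 0.41) and 0.61 ± 0.39 at d9 (interval -0.25 to 1.46), and neither passed. The d9 value was 0.15 without acetate library 3, 0.33 without library 1 lacking acetate and 0.95 without acetate library 2. Their difference was 1.27 ± 0.62 (edgeR adjusted p = 0.683). Runx1, the family member that acts earlier in T cell development, rose from 4.10 ± 0.808 to 11.5 ± 3.91 CPM between the days without acetate (1.49 ± 0.47; edgeR adjusted p = 0.0301) and by 1.78 ± 0.48 with it (edgeR adjusted p = 0.0142). Runx2 changed by -0.54 ± 0.38 and 1.00 ± 0.39 and Cbfb, the shared partner subunit, by -0.40 and -0.38, and none of these passed edgeR (adjusted p of 0.0623 to 0.284).

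**Figure D4:**
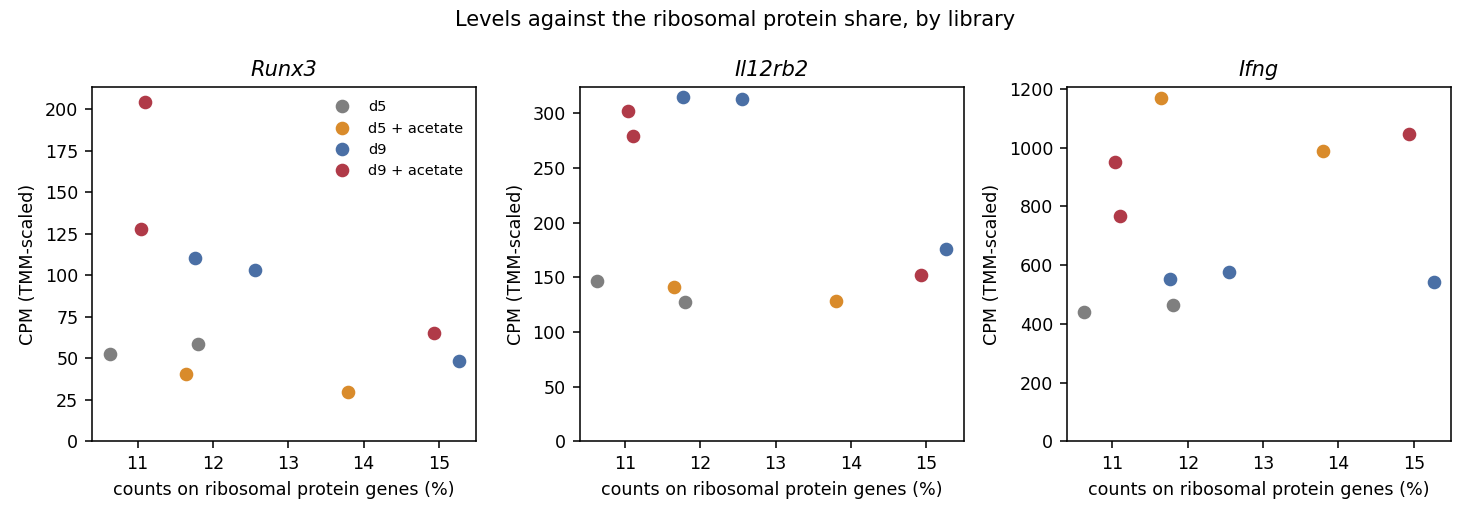
Levels of Runx3, Il12rb2 and Ifng in CPM against the percent of counts taken by ribosomal protein genes, 1 point per library, coloured by group. The 2 d9 libraries at 15.3% and 14.9% hold the lowest Runx3 and Il12rb2 values of their groups; the part of this share in the results was not tested.

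Hlx, the homeobox factor induced by T-bet, was at the edge of detection. It held 113 counts over the 10 libraries, with levels from 0.0584 to 0.885 CPM. The d5 libraries alone spanned 0.0584 to 0.662 CPM, which covers most of the range of all groups. No change of Hlx passed. Its change between the days was 1.00 ± 0.64 without acetate, and 3.53 (edgeR adjusted p = 0.0263) when the d5 library 1 was left out, so no direction is read from it.

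The wider pathway was described by lists of genes, as counts past the threshold over all genes. The lists include some of the members and overlap each other, as for Stat4, Irf8 and Xcl1. Their counts are therefore not separate from each other or from the members. The list for the interleukin-12 and interleukin-18 receptors and their kinases had 14 tested genes. It also held Il2rb, an interleukin-2 receptor chain, and the signal transducers Stat3, Stat4 and Stat5b. Of the 14, 9 were higher and 2 lower at d9 without acetate, and likewise 9 and 2 with acetate. Of all tested genes 15.9% were higher and 21.2% lower without, and 18.5% and 23.1% with acetate. Beside the interleukin-12 chains, Tyk2, the kinase bound to IL-12R-beta1, rose by 0.78 and 0.73. The 2 that fell were the chains of the interleukin-18 receptor: Il18r1 went from 85.3 ± 19.3 to 27.8 ± 1.60 CPM (-1.62 ± 0.21; edgeR adjusted p = 2.72e-04) and Il18rap from 145 ± 22.5 to 101 ± 9.56 CPM (-0.52 ± 0.16; edgeR adjusted p = 0.0238) without acetate. Leaving out single libraries gave 4 to 9 higher without acetate, the fewest without d5 library 1, and 7 to 9 with it, and 1 to 2 lower without acetate (1 without d9 library 2 or 3). With acetate averaged over the days 1 of the 14 rose, Stat4, against 5.89% of all genes called in either direction.

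Of 9 genes of the interferon-gamma receptor pathway, 5 were higher and 1 lower at d9 without acetate (all tested genes: 15.9% and 21.2%). With acetate 6 were higher and 1 lower (18.5% and 23.1%). Ifngr1, the ligand-binding chain, went from 44.7 ± 0.0379 to 74.1 ± 7.17 CPM without acetate (0.73 ± 0.17; edgeR adjusted p = 0.00715) and from 44.8 ± 2.09 to 99.7 ± 21.6 CPM with it (1.16 ± 0.17; edgeR adjusted p = 5.02e-04). Ifngr2, the signalling chain, rose by 1.09 ± 0.28 and 1.59 ± 0.27, at 1.22 to 3.93 CPM. The gene that fell was Ptpn2, a phosphatase that limits JAK signalling (-0.63 ± 0.13 and -0.91 ± 0.12). The number higher without acetate went from 5 to 0 when either d5 library was left out and to 3 without d9 library 2 or 3, while with acetate it was 4 to 6.

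Of 31 tested interferon-gamma response genes (35 listed), 24 were higher and 0 lower at d9 without acetate (all tested genes: 15.9% and 21.2%). With acetate 22 were higher and 0 lower (18.5% and 23.1%). Leaving out single libraries gave 12 to 23 higher without acetate, the fewest without d5 library 2, and 16 to 22 with it. In all 30 of 31 had a positive change without acetate, with a median of 0.77, and 28 with it, with a median of 0.85. Irf1, a transcription factor at the head of the response, went from 22.0 ± 1.52 to 54.9 ± 4.26 CPM without acetate (1.32 ± 0.17; edgeR adjusted p = 2.34e-04). Gbp2, a guanylate-binding protein of cell-autonomous defence, rose by 1.12 ± 0.22 and 1.52 ± 0.22, and Irf8 by 2.16 ± 0.26 and 2.93 ± 0.27. Many of these genes also answer type I interferon, which the list cannot separate.

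With acetate few of these response genes were called. At d5 edgeR called 0 of the 31 (6 at an unadjusted p under 0.05, 1 by the DESeq2 Wald test) and at d9 0 (4 and 1). Of all 13182 tested genes edgeR called 1.52% at d5, 0.0303% at d9 and 5.89% on average. An unadjusted p under 0.05 was held by 2612 of them at d5 and 2026 at d9. At such shares these counts do not set the response genes apart from all genes. The median acetate changes of the 31 were 0.10 and 0.09. Averaged over the days 1 rose, Irf8 (0.83 ± 0.17; edgeR adjusted p = 0.0258), a call that was lost without the 2 apart libraries (edgeR adjusted p = 0.0582). The DESeq2 Wald test called 3 of the 31 on average. Ifng itself rose 1.99-fold in that same comparison, and a link between it and these genes was not tested.

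**Figure D5:**
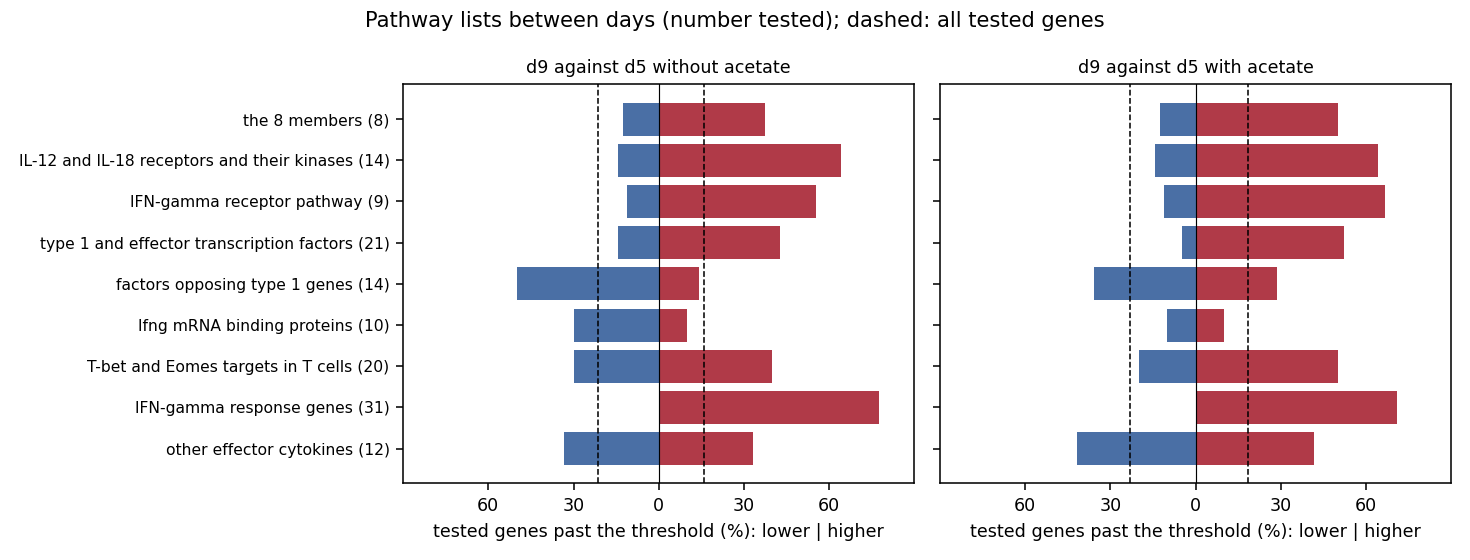
Percent of the tested genes of each list that were lower (left) or higher (right) at d9 than at d5, without and with acetate; the number tested stands beside each list and dashed lines mark all tested genes. The interferon-gamma response genes have 24 and 22 of 31 on the higher side and 0 on the lower.

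Among 21 type 1 and effector transcription factors, 9 were higher and 3 lower at d9 without acetate (all tested genes: 15.9% and 21.2%). With acetate 11 were higher and 1 lower (18.5% and 23.1%). Batf, an AP-1 family factor, rose by 1.55 ± 0.13 without acetate (edgeR adjusted p = 1.64e-05), and Ets1, a factor that cooperates with T-bet at Ifng, fell from 179 ± 9.33 to 75.7 ± 3.35 CPM (-1.24 ± 0.15; edgeR adjusted p = 1.34e-04). Averaged over the days 4 rose with acetate, where 5.89% of all tested genes were called in either direction: Stat4, Id2, Irf8 and Ikzf3. Id2, an inhibitor of E proteins that sustains effector cells, rose by 0.75 ± 0.15 (edgeR adjusted p = 0.0222) and Ikzf3, which encodes Aiolos, by 0.74 ± 0.15 (edgeR adjusted p = 0.0258). Each of Id2, Irf8 and Ikzf3 passed in 4 of the 10 fits that left out 1 library, and the number of factors that rose was 0 without any 1 of the 4 d5 libraries and 1 without d9 library 2 or 3 lacking acetate.

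Of 14 factors that oppose type 1 genes, 2 were higher and 7 lower at d9 without acetate (all tested genes: 15.9% and 21.2%). With acetate 4 were higher and 5 lower (18.5% and 23.1%). The number higher was 1 without d5 library 1, 4 without the 2 apart libraries, and 2 in the presence of acetate without the d5 acetate library 2. Twist1, which restrains Ifng in T cells, fell from 9.97 ± 2.04 to 0.772 ± 0.174 CPM without acetate (-3.69 ± 0.33; edgeR adjusted p = 2.63e-05) and by 2.75 on the log2 scale with it. Id3, linked to memory cells, fell by 1.34 and 1.63. Tgfbr2, a receptor chain for transforming growth factor-beta, rose instead, from 109 ± 5.32 to 309 ± 40.4 CPM without acetate (1.51 ± 0.18; edgeR adjusted p = 1.48e-04). Gata3, the type 2 factor, chosen after its values were seen, fell from 22.4 ± 3.56 to 8.23 ± 1.72 CPM without acetate (-1.44 ± 0.25; edgeR adjusted p = 0.00139). With acetate edgeR called 0 of the 14 at d5, at d9 or on average, where 1.52%, 0.0303% and 5.89% of all genes were called. An unadjusted p under 0.05 was held by 5, 1 and 3 of them, and the DESeq2 Wald test called 2, 1 and 0.

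For proteins known to bind Ifng mRNA the comparison is with 37.1% and 41.6% of all genes called between the days, without and with acetate. Of 10 tested, 1 was higher and 3 lower at d9 without acetate (0 and 1 without d5 library 2), and 1 and 1 with it (4 and 2 without the apart libraries; 0 higher without either d5 acetate library). Gapdh, a glycolytic enzyme that can bind the message, rose by 0.76 ± 0.20 without acetate (edgeR adjusted p = 0.0112) and changed by 0.32 ± 0.19 with it (edgeR adjusted p = 0.198). Zfp36l1, a decay factor for AU-rich messages, fell by 1.65 on the log2 scale without acetate (edgeR adjusted p = 0.00725), and Rc3h2, a roquin paralog, by 0.98 and 1.32. With acetate edgeR called 0 of 10 at d5, at d9 and on average, where 1.52%, 0.0303% and 5.89% of all genes were called. An unadjusted p under 0.05 was held by 0, 1 and 1 of the 10, and the DESeq2 Wald test called 0 in all 3.

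Genes described as targets of T-bet and Eomes did not move as a block. Of 20 tested, 8 were higher and 6 lower at d9 without acetate (all tested genes: 15.9% and 21.2%). With acetate 10 were higher and 4 lower (18.5% and 23.1%). The number higher was 4 without d5 library 2 and, with acetate, 6 without the d5 acetate library 2. Cxcr3, the chemokine receptor driven by T-bet, fell from 39.5 ± 1.64 to 2.78 ± 0.613 CPM without acetate (-3.82 ± 0.22; edgeR adjusted p = 2.88e-06), and Xcl1, a chemokine gene, by 1.73 on the log2 scale. Gzmb, which encodes granzyme B, rose from 1215 ± 141 to 5042 ± 998 CPM (2.05 ± 0.20; edgeR adjusted p = 3.63e-05).

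With acetate at d5, 3 of these 20 targets were called: Ifng and Gzmb rose and Cxcr3 fell. Of all tested genes 1.52% were called with acetate at d5, 0.0303% at d9 and 5.89% on average, in either direction. Gzmb rose from 1215 ± 141 to 3551 ± 412 CPM (1.55 ± 0.20; edgeR adjusted p = 0.0112) and Cxcr3 fell to 9.53 ± 2.69 CPM (-2.05 ± 0.24; edgeR adjusted p = 0.00826). Like that of Ifng, these calls at d5 were lost whenever 1 of the 4 libraries was left out. Averaged over the days Gzmb, Ifng and Ccl4 rose and Cxcr3 fell; Gzmb and Ifng passed in all 10 fits without 1 library, Cxcr3 in 9 (not without d5 library 2) and Ccl4 in 5. Of 12 tested other effector cytokines, 3 rose with acetate at d5 (Il10, Csf2 and Lta), 2 at d9 (Il10 and Csf2) and 6 on average. None fell in these comparisons, where the shares of all genes called were 1.52%, 0.0303% and 5.89%. The calls at d5 went to 0 without any 1 of its 4 libraries, those at d9 to 0 without d9 library 3 lacking acetate, and those on average to 3 without either d5 library lacking acetate.

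The genes whose levels were most like those of Ifng over the 10 libraries were Fgfbp3 (Pearson r = 0.966), Nars (0.952), Nom1 (0.950), Wdr75 (0.938) and Itgb1 (0.938), among 9791 protein-coding genes. For Tbx21 they were Ccl3 (r = 0.980), Uchl5 (0.974), Rsf1 (0.973), Sf3b1 (0.969) and Il1rl1 (0.968). Among the members, Stat4 was closest to Ifng (r = 0.74), and Eomes and Il12rb1 were closest to each other (r = 0.97). The points share 4 group means and their libraries, so these values only describe the pattern.

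The labelled cell type was checked on marker genes. The 7 CD8 T cell markers summed to 1882 to 2001 CPM at d5, 2160 to 2233 at d5 with acetate, 2539 to 2626 at d9 and 2399 to 2820 at d9 with acetate. At d9, 5 of the 7 were called higher without acetate and 2 with it, against 15.9% and 18.5% of all tested genes. Cd8a rose with acetate at d5 (0.75 ± 0.15, edgeR adjusted p = 0.0385) and averaged over the days (0.48 ± 0.09, edgeR adjusted p = 0.0218). Because natural killer (NK) cells also express Ifng, Tbx21 and Eomes, 7 NK markers were summed too: 4.09 to 4.91 CPM at d5, 8.78 to 8.80 at d5 with acetate, 9.44 to 16.1 at d9 and 19.1 to 27.0 at d9 with acetate. This sum thus moved with both day and acetate. It held Klrb1c at 1.50, 5.47, 10.9 and 20.9 CPM in the same order and Klri2 at 2.41, 2.48, 0.132 and 0.451 CPM, so that Klri2 was above Klrb1c at d5 and below it in the other groups. Klri2 was lower at d9 without acetate (-4.14 ± 0.57; edgeR adjusted p = 3.40e-04) and with it (-2.45 ± 0.47; edgeR adjusted p = 0.00225). Klrb1c rose between the days (2.86 ± 0.28 without and 1.93 ± 0.24 with acetate; edgeR adjusted p = 4.53e-05 and 1.77e-04) and also rose with acetate averaged over the days (1.40 ± 0.18; edgeR adjusted p = 0.00630). The defining marker Ncr1 was at or near 0 with 19 counts in all libraries together and at most 0.263 CPM, Klra4 was at 0 in all but the d5 acetate group, and Klra8 was at 0 in all but the d5 group. Other marker sums moved with the day or with acetate as well. Markers of B cells summed to 141 to 172 CPM at d5, 199 to 208 at d5 with acetate, 78.6 to 102 at d9 and 85.5 to 119 at d9 with acetate. Ighm was lower at d9 without acetate (-0.81 ± 0.17, edgeR adjusted p = 0.00333). Cd79b was higher with acetate at d5 (1.64 ± 0.35, edgeR adjusted p = 0.0499). Markers of monocytes, macrophages and dendritic cells summed to 7.48 to 9.27 CPM at d5 and 22.1 to 32.6 CPM at d9 without acetate, with Clec9a at 0 in every library. Fcer1g of that list was higher at d9 without acetate (2.06 ± 0.27; edgeR adjusted p = 2.26e-04) and with it (1.89 ± 0.26; edgeR adjusted p = 3.17e-04). CD4 T cell markers, of which activated CD8 cells share several, summed to 178 to 179 CPM at d5 and 231 to 264 at d5 with acetate. At d9 they summed to 175 to 244 CPM, and with acetate to 232 to 364 CPM. Within this sum Cd4 was higher at d9 without acetate (2.18 ± 0.39, edgeR adjusted p = 0.00166). Cd40lg was lower in the same comparison (-2.03 ± 0.35, edgeR adjusted p = 0.00142). In the presence of acetate neither passed between the days (0.81 and -0.38, edgeR adjusted p = 0.104 and 0.406). The part of other cells in the members' values was not tested, and in bulk RNA fewer cells of a type and less RNA per cell cannot be told apart.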

How the data were processed

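Polyadenylated RNA of 10 samples in 4 groups was sequenced, with a stranded mRNA kit per the labels. The deposited values are whole-number counts per gene in 1 file per sample. The submitters' processing notes name STAR, featureCounts, deepTools, DESeq2 and the GRCm38 build; versions, the annotation release and the strand option of the counting are not given there. Symbols, coordinates and exon lengths came from GENCODE M21, which matched 53360 of 53465 identifiers; the 105 others held 0.00689% of counts at most in any library. TMM scaling and filterByExpr by group left 13182 genes. In R 4.3.3, edgeR 4.0.16 fitted 4 group means over all libraries (robust quasi-likelihood, 6 residual degrees of freedom, no covariates), and 6 contrasts were tested with Benjamini-Hochberg adjustment over all tested genes. SE is the absolute log2 fold change over the square root of F, and 95% intervals use t quantiles.

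Alternatives were DESeq2 size factors, no filter on low counts, the DESeq2 1.42.0 Wald test, a block on the replicate number, counts summed with overlapping genes, leaving out each library, and leaving out the 2 d9 libraries that stood apart. The members, lists and libraries left out were chosen with earlier results of these data known. Named list genes were those of smallest p per list and comparison, up to 4 past the threshold or otherwise up to 2. The likeness of genes was the Pearson correlation of log2 CPM with a prior count of 2, over genes with a mean log2 CPM of at least 1. Replicates of a group differed by more than counting noise. Depth was 16.59 to 24.66 M counts per sample, so counting error is small for most members. It is larger for Eomes at d5, with 71 counts in its lowest library, and largest for Hlx. The scripts were tested on simulated data. Some single-gene results are not reported.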

Additional observations from a re-analysis of the deposited data

How the results depend on the processing

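Of 600 values of the members under alternatives, 526 kept their direction and their side of the threshold, 25 lost and 15 gained a call, and 34 changed sign. The calls of Il12rb1 and Eomes between the days, of Tbx21 without acetate and of Ifng averaged over the days held under every alternative run. The number of members past the threshold for acetate at d5 was 2 by the DESeq2 Wald test, against 1, and 0 without any 1 library. For acetate at d9 it was 1 with no low-count filter, 3 by the DESeq2 Wald test and 1 without the 2 apart libraries, against 0. For d9 against d5 with acetate it was 3 with no filter and 6 without the 2 apart libraries, against 5, and 3 to 5 without any 1 library; without acetate these fits gave 3 to 4, averaged acetate gave 1 to 3, and acetate at d9 and the difference gave 0. The summed count of Il12rb2 and Serbp1, mostly Serbp1, changed with acetate by 0.38 at d5, 0.14 at d9 and 0.26 on average, which does not describe Il12rb2 alone. Without the 2 apart libraries the difference of the acetate effects was 0.042 for Stat4 and Ifng was lower at d9 with acetate (-0.33; edgeR adjusted p = 0.0364). The causes were not tested.

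Signs also turned when single libraries were left out, all for changes that did not pass. For Il12rb1 the ranges were -0.44 to 0.37 for acetate at d5, -0.14 to 0.042 at d9, -0.23 to 0.17 on average and -0.40 to 0.41 for the difference. For Il12rb2 they were -0.12 to 0.080, -0.35 to 0.13, -0.19 to 0.054 and -0.32 to 0.16. For Runx3 the average ran from -0.26 to 0.14, and for Stat4 the difference from -0.17 to 0.01. For Hlx acetate at d5 ran from -1.58 to 1.79, the average from -0.95 to 0.74 and the difference from -2.11 to 1.27.

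Counts over all genes moved more. By the DESeq2 Wald test 786 genes passed for acetate at d5, 335 at d9, 1435 on average and 102 for the difference, against 201, 4, 777 and 0. With no filter these were 578, 197, 1050 and 99, and without the 2 apart libraries 213 passed for acetate at d9, 2667 on average and 255 for the difference. Leaving out 1 library gave 0 to 10 genes for acetate at d5, 0 to 18 at d9, 27 to 1659 on average, 3108 to 5698 between the days with acetate, 2803 to 4763 without and 0 to 1 for the difference. Whether the replicate numbers pair the samples could not be decided. After centring within groups, same-numbered samples correlated by 0.03 at d5 and by -0.14, -0.39 and 0.33 at d9. Differently numbered samples correlated by -0.03 at d5, where groups of 2 force values of equal size. At d9 such samples correlated by -0.43 to 0.51, the highest being that of the 2 apart libraries. With a replicate block, 62 genes passed for acetate at d5, 4 at d9, 484 on average, 4248 and 4556 between the days without and with acetate and 0 for the difference; the members past the threshold were 1, 0, 2, 3, 4 and 0 in this order, the lost calls being those of Il12rb2 (edgeR adjusted p of 0.0788 and 0.112). Depth limits Hlx, with 1 count in its lowest library, and to a lesser degree Eomes, with 71.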
